A study of Mus musculus with 14 samples.

Results

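The Fc receptor and Fc receptor-like genes are 8 genes, taken by symbol, of the 24980 genes in the dendritic cell table and the 17118 genes in the table of monocytes and macrophages, and all 8 were found in both. They are the IgG receptor genes Fcgr1, Fcgr3, Fcgr4 and Fcgr2b, the signalling subunit gene Fcer1g, the neonatal receptor gene Fcgrt, and the Fc receptor-like genes Fcrl1 and Fcrl5. RNA was sequenced from cells sorted out of mouse bone marrow in 14 libraries, and expression is given in CPM, which corrects for library size but not for gene length. Mice carried 1 Cx3Cr1 allele with GFP in every group (Cx3Cr1gfp/+), although the series text calls the treated mice wildtype. Dendritic cells (GFP-high, MHCII-high, CD11c-high, negative for Gr-1 and B220) came from mice given vehicle alone (4 libraries) or treated once with PAM3CSK4, a lipopeptide agonist of TLR1/2 (4 libraries). Monocytes (GFP-high, CD115+ and B220-, both Gr-1-low and Gr-1-high; 3 libraries) and macrophages (GFP-negative, MHCII-high, CD169+, Gr-1- and B220-; 3 libraries) were labelled baseline. The labels give no dose, collection time, age or sex and do not tell if each library is a different mouse, and the tests therefore compare groups with a library-to-library spread that could be partly technical.

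Activating Fc gamma receptors bind antibody-coated particles and signal through the common gamma chain encoded by Fcer1g, whose ITAM is phosphorylated by Src-family kinases and recruits Syk. Fcgr2b is the inhibitory member, whose ITIM recruits the phosphatase SHIP and dampens the same signal, so the balance between the activating receptors and Fcgr2b sets the threshold at which immune complexes trigger a myeloid cell. Fcgrt encodes the heavy chain of FcRn, which pairs with the B2m protein in endosomes and protects IgG from degradation. The Fc receptor-like proteins are best known on B cells.

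The genes lie in 3 places in mm10. Fcgr2b (chr1:170960559-170976072), Fcgr4 (chr1:171018926-171029762), Fcgr3 (chr1:171051169-171059404) and Fcer1g (chr1:171229572-171234350) sit within 274 kb of chromosome 1. Fcrl1 (chr3:87376387-87402935), Fcrl5 (chr3:87435782-87500679) and Fcgr1 (chr3:96282909-96293970) are on chromosome 3, and Fcgrt (chr7:45092993-45103823) is on chromosome 7. The 250 bases before the transcription start are shown for Fcgr1 and Fcgr4, which were high in the same dendritic cell libraries, for Fcgr3, which was lower in macrophages than in monocytes, and for Fcrl5, which rose most in dendritic cells. They are from RefSeq (GRCm38.p6), on the strand of the gene, and capitals mark matches on either strand to GAGGAA, the core bound by the myeloid factor PU.1 (found as TTCCTC on the other strand), to TTCNNNGAA, a STAT element, or to GAAA, any 2 bases and GAAA again, a pair of IRF half-sites. In Fcgr4 the marked stretches are the IRF pair and the PU.1 core.
Fcgr1, chr3:96293970-96294219, minus strand: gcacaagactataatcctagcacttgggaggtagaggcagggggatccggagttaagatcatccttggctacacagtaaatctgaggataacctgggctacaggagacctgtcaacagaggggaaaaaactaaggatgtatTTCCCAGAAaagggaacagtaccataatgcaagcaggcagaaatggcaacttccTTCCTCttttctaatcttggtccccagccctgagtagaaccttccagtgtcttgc
Fcgr4, chr1:171018676-171018925, plus strand: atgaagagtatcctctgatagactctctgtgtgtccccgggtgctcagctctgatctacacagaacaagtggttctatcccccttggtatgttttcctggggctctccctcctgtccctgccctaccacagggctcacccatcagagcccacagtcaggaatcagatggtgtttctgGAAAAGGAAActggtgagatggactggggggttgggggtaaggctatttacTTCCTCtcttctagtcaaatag
Fcgr3, chr1:171059404-171059653, minus strand: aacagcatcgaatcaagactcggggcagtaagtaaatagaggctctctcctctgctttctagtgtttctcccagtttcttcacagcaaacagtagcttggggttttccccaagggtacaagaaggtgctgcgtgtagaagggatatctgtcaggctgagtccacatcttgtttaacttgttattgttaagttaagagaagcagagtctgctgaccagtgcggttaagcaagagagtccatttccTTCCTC
Fcrl5, chr3:87435532-87435781, plus strand: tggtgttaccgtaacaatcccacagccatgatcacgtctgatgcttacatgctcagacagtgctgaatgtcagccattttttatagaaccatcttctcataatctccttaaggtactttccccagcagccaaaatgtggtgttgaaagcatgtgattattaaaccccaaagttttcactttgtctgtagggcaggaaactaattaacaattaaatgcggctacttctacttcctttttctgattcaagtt

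RefSeq windows were matched for 8 of 8 genes. GAGGAA was present in 4 of them (Fcgr1, Fcgr3, Fcgr4 and Fcrl1), against 23.3% of 32851 windows of the same length over all genes. In Fcgr1 the match begins at position -55 from the start, in Fcgr4 at -22, in the Fcgr3 window shown at -6 and in Fcrl1 at -93 and -13. TTCNNNGAA was found in Fcgr1 alone, at -109, against 7.02% of all windows, and the IRF pair in Fcgr4 alone, at -73, against 2.98%. A loose NF-kB form, GGG and CC with any 5 bases between them, was found in 5 of 8 genes against 45.8% of all windows and is not marked. The Fcrl5 and Fcgrt windows held none of the 4 motifs. These are matches of letters and not measured sites.

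Low values lay on a regular step that put 1 CPM at 28.2 to 75.1 reads or fragments, and the listed genes summed to 350368 to 578711 CPM per library. In dendritic cells this step went with the replicate number. Replicates 2 and 3 had 38.0 and 39.2 reads or fragments per CPM with vehicle and 28.2 and 30.3 with PAM3CSK4. Replicates 1 and 4 had 71.6 and 59.8 with vehicle and 63.4 and 65.3 with PAM3CSK4. Markers of other cells moved with the groups. The 13 listed neutrophil genes summed to 417 to 826 CPM with vehicle and to 515, 935, 1565 and 11546 CPM with PAM3CSK4, the last in replicate 4. The 11 conventional dendritic cell genes summed to 3318 to 4341 CPM with vehicle and to 524 to 2105 CPM with PAM3CSK4, with replicate 4 the lowest. The 12 monocyte genes summed to 1753 to 2616 CPM with vehicle and 1172 to 1600 CPM with PAM3CSK4 (3 of 12 tested lower, 0 higher), the 10 plasmacytoid dendritic cell genes to 80.9 to 154 and 98.8 to 637 CPM (4 of 9 tested higher, 0 lower), and the 8 erythroid genes to 14.8 to 119 and 58.1 to 732 CPM (2 of 6 tested higher, 0 lower). In the other table the monocyte genes summed to 8085 to 9184 CPM in monocytes and 617 to 1091 CPM in macrophages. The 14 macrophage genes summed to 366 to 557 CPM in macrophages and 124 to 438 CPM in monocytes, and 7 were higher in macrophages and 1 lower (median log2 change 1.504, with 13 of 14 above 0). The 1 that was lower was the general macrophage marker Adgre1 (log2 change -1.40, adjusted p = 0.011), and Siglec1, which encodes the sorted CD169, did not pass (0.86, adjusted p = 0.42). The macrophage libraries also held more plasma cell transcripts (9 genes, 552 to 8393 CPM against 125 to 211 in monocytes), B cell transcripts (10 genes, 79.5 to 783 against 15.7 to 32.6), NK and T cell transcripts (7 genes, 109 to 326 against 10.6 to 22.6), mast cell and basophil transcripts (8 genes, 250 to 597 against 51.4 to 86.1) and erythroid transcripts (8 genes, 77.8 to 545 against 6.17 to 48.9). The 11 conventional dendritic cell genes summed to 1092 to 1860 CPM in macrophages and 194 to 1042 CPM in monocytes (4 higher, 1 lower, median log2 change 1.25). Of 12 neutrophil genes tested 8 were higher in macrophages and 4 lower, with sums of 1671 to 4019 CPM against 2375 to 3406 in monocytes. In bulk RNA, fewer cells of a type and less RNA per cell cannot be told apart.

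Of the 8 genes, 2 differed between the PAM3CSK4 and vehicle libraries of dendritic cells, with Fcrl5 higher and Fcgrt lower after treatment. Changes are log2 of CPM + 1 with SE, tested with limma on all 11377 genes that reached 1 CPM in at least 4 libraries, with Benjamini-Hochberg adjustment and a threshold of 0.05. Over all genes tested, 5.12% passed (2.82% higher and 2.29% lower), and in 14.8% the groups did not overlap (10.1% higher and 4.68% lower), against 2 of 8 members by either measure. The median log2 change over all genes was 0.20, which fell to -0.02 with median centring, and that over the 8 members was 0.29. No member changed sign under median centring, a common total or quantile normalization.

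**Figure D1:**
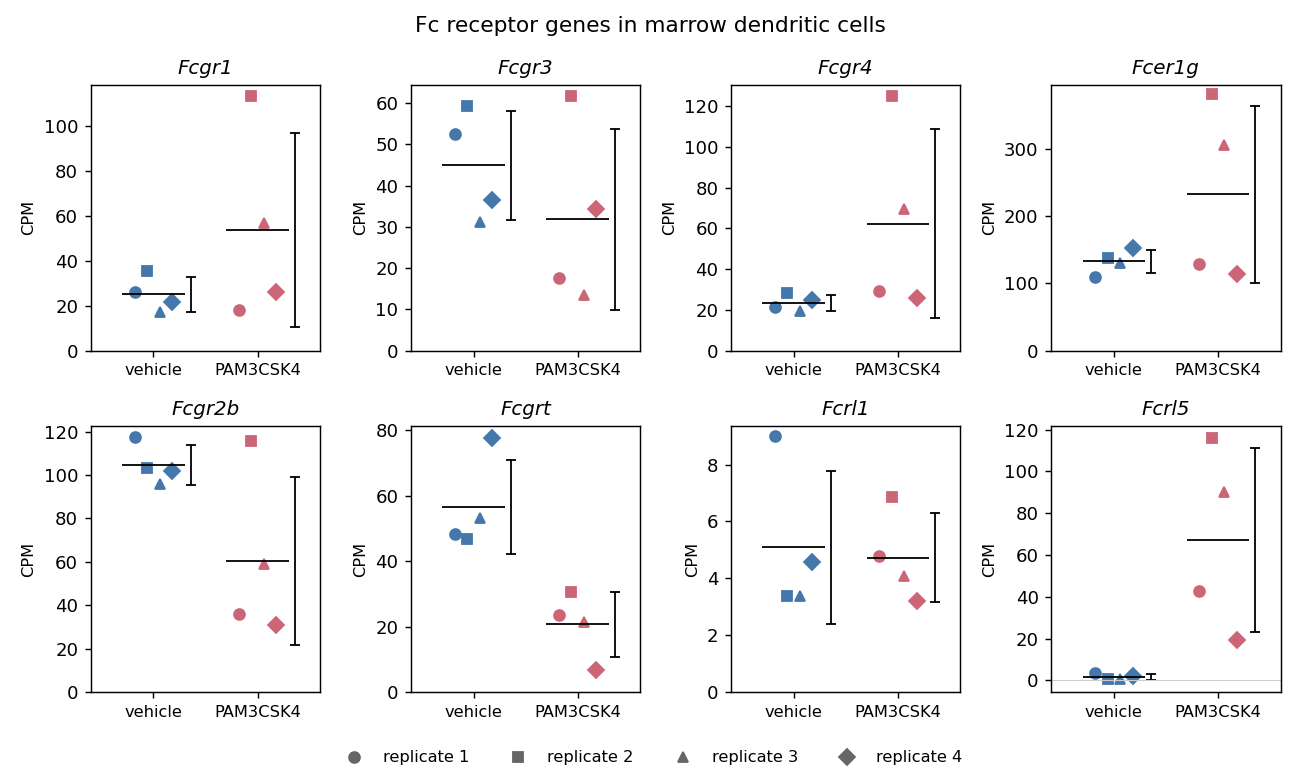
CPM (vertical axis, from 0 or just below it) of each gene in dendritic cells given vehicle or PAM3CSK4 (horizontal axis). Points are libraries with shape for the replicate, lines are means and bars SD, n = 4 per group. Only Fcgrt and Fcrl5 have groups that do not overlap, and in Fcgr1, Fcgr4 and Fcer1g PAM3CSK4 replicates 2 and 3 stand above the other 6 libraries.

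Fcrl5 encodes a B cell receptor with both ITIM and ITAM-like sequences. It was at 3.35, 0.598, 0.485 and 2.02 CPM with vehicle (replicates 1 to 4) and at 42.7, 116, 90.4 and 19.4 CPM with PAM3CSK4. Every treated library was above every vehicle library, with replicate 2 the highest and replicate 4 the lowest. The log2 change was 4.55 ± 0.52 (n = 4 and 4, adjusted p = 0.00095), and it lay between 4.20 and 5.04 (adjusted p of 8.1e-06 to 0.0070) when any 1 library was left out. Without the filter on low values, with all 24980 genes in the fit, adjusted p was 0.077, and Fcrl5 reached the filter through the treated libraries. The change was 5.37 with a pseudocount of 0.1 and 5.23 with array quality weights.

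B cell markers had no common direction with PAM3CSK4, and plasma cell markers summed to less. The median log2 change was -0.26 over the 4 B cell genes tested and 0.16 over the 5 plasma cell genes tested. The 10 B cell genes summed to 35.1 to 49.1 CPM with vehicle and 25.0 to 72.4 CPM with PAM3CSK4, and the 9 plasma cell genes to 172 to 224 and 116 to 153 CPM. Of the 4 B cell genes tested, Blk, a Src-family kinase of B cells, rose (log2 change 1.88, adjusted p = 0.019) and Fcer2a fell, and of the 5 plasma cell genes tested Irf4 fell (-2.19, adjusted p = 0.039) and 0 rose. The B cell marker Ms4a1, which encodes CD20, was at 1.28, 0.71, 0.73 and 1.03 CPM with PAM3CSK4 and at most at 0.29 CPM with vehicle, and the part of B cells in the Fcrl5 values was not tested.

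Fcrl1, the neighbour of Fcrl5 and an activating coreceptor of B cells, did not pass. Its values were 9.02, 3.37, 3.39 and 4.57 CPM with vehicle and 4.77, 6.86, 4.08 and 3.19 CPM with PAM3CSK4. The groups overlapped, and the log2 change was -0.04 ± 0.31 (adjusted p = 0.96).

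Fcgrt was at 48.4, 46.7, 53.2 and 77.7 CPM with vehicle and at 23.5, 30.7, 21.5 and 6.86 CPM with PAM3CSK4. The highest treated library was below the lowest vehicle library, and replicate 4 was the lowest. The log2 change was -1.55 ± 0.38 (adjusted p = 0.038). Leaving out any vehicle library ended the call (adjusted p = 0.094, 0.084, 0.091 and 0.10 for replicates 1 to 4), as did leaving out PAM3CSK4 replicate 3 (0.069) or the filter (0.23), with log2 changes between -1.79 and -1.12 over all alternatives. B2m, the gene of the FcRn light chain, did not move with it (log2 change 0.48 ± 0.34, adjusted p = 0.40). Reads of Fcgrt and of the antisense gene Gm45669, which overlaps 905 of its 2102 exonic bases in GENCODE M21, cannot be told apart, because no source used here gives the strand setting.

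None of the activating receptor genes or Fcer1g passed with all libraries in the fit. Fcgr1 encodes CD64, the high-affinity IgG receptor. It was at 26.0, 35.5, 17.2 and 21.8 CPM with vehicle and at 18.1, 113, 57.0 and 26.1 CPM with PAM3CSK4. Replicates 2 and 3 lay above all vehicle libraries and replicates 1 and 4 within their range, and the log2 change was 0.76 ± 0.47 (adjusted p = 0.33).

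Fcgr4 encodes an activating receptor for a subset of IgG classes and was highest in the same 2 treated libraries, replicates 2 and 3. It was at 21.4, 28.4, 19.3 and 24.8 CPM with vehicle and at 29.4, 125, 69.4 and 25.7 CPM with PAM3CSK4. Only replicate 4 fell inside the vehicle range. The log2 change was 1.10 ± 0.42 (adjusted p = 0.14), and it passed without PAM3CSK4 replicate 4 (1.42, adjusted p = 0.034) and with array quality weights (1.28, adjusted p = 0.021).

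Fcer1g, the common gamma chain gene, was at 110, 138, 131 and 152 CPM with vehicle and at 129, 381, 305 and 114 CPM with PAM3CSK4. Replicates 2 and 3 were again the high ones and replicates 1 and 4 lay inside the vehicle range, and the log2 change was 0.62 ± 0.36 (adjusted p = 0.31). Replicates 2 and 3 were also the treated libraries with the fewest reads or fragments per CPM (28.2 and 30.3). The part of sequencing depth in the pattern of these 3 genes was not tested. The SD of the treated libraries was 56.8% of their mean for Fcer1g, 74.1% for Fcgr4 and 80.4% for Fcgr1, against 13.1%, 17.1% and 30.9% with vehicle.

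The low-affinity activating receptor gene Fcgr3 was not high in both of these libraries. Its values were 52.6, 59.2, 31.3 and 36.5 CPM with vehicle and 17.7, 61.8, 13.4 and 34.4 CPM with PAM3CSK4. Replicates 1 and 3 were below all vehicle libraries and replicate 2 was above them, and the log2 change was -0.68 ± 0.41 (adjusted p = 0.32).

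The inhibitory receptor gene Fcgr2b was steady with vehicle, at 118, 103, 95.7 and 102 CPM, and was at 35.9, 116, 59.0 and 30.8 CPM with PAM3CSK4. Of the treated libraries 3 were below every vehicle library and replicate 2 was inside their range. The log2 change was -0.98 ± 0.35 (adjusted p = 0.12), and it passed without PAM3CSK4 replicate 2 (-1.35, adjusted p = 0.019). Fcgr2b and Fcgr3 share 166 exonic sequences of 50 bases (9.58% of those of Fcgr3 and 2.92% of those of Fcgr2b), so reads may have been split between them, and Fcgr2b also overlaps the antisense gene Gm38204.

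**Figure D2:**
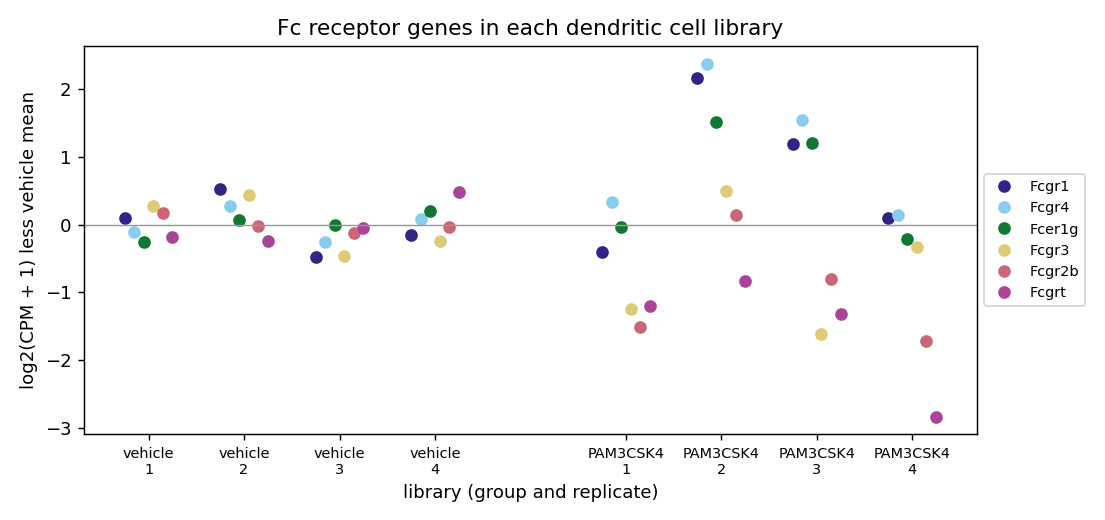
log2(CPM + 1) less the vehicle mean (vertical axis) of 6 genes in each of the 8 dendritic cell libraries (horizontal axis), 1 point per gene and library. Fcgr1, Fcgr4 and Fcer1g are high in PAM3CSK4 replicates 2 and 3, while Fcgr2b and Fcgrt are below the vehicle mean in 3 and 4 of the 4 treated libraries.

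Macrophage markers were also uneven between the treated libraries. The 14 macrophage genes summed to 622 to 1147 CPM with vehicle and to 500, 2766, 1119 and 563 CPM with PAM3CSK4, and replicate 2 was the highest for Fcgr1, Fcgr4 and Fcer1g too. Of the 13 tested, 3 rose (Cd5l, log2 change 2.92; Spic, 2.29; Hmox1, 2.26) and 2 fell (Cd163, -3.12; Axl, -2.17). The median log2 change of the 13 was -0.09, and 5 of 13 were above 0. Adgre1, named after its values were seen, was at 49.4, 98.8, 56.3 and 43.0 CPM with vehicle and at 104, 709, 228 and 65.3 CPM with PAM3CSK4. The part of these cells in the spread of the Fc receptor genes was not tested. Replicate 2 was the highest treated library for all 8 genes. The neutrophil-rich replicate 4 was the lowest for Fcgr2b, Fcgr4, Fcer1g, Fcgrt, Fcrl1 and Fcrl5, and without it 3 members passed (Fcrl5, Fcgr4 and Fcgrt).

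Within each library Fcgr1 and Fcgr4 stood higher relative to Fcgr2b after PAM3CSK4, in ratios given with no test. The log2 ratio of Fcgr4 to Fcgr2b, from CPM + 1, was -2.41, -1.82, -2.25 and -1.996 with vehicle and -0.28, 0.11, 0.23 and -0.26 with PAM3CSK4. The ratio of Fcgr1 to Fcgr2b was -2.13, -1.51, -2.41 and -2.17 with vehicle and -0.95, -0.03, -0.05 and -0.23 with PAM3CSK4. In both ratios the groups did not overlap, and the mean ratio differed by 2.07 for Fcgr4 and 1.74 for Fcgr1. The libraries that differed so much in level were close together in the Fcgr4 ratio, with an SD of 0.26 in each group. Among the treated libraries replicate 2 was the highest and replicate 4 the lowest for both Fcgr4 and Fcgr2b. A swing in level that both genes share drops out of their ratio, and the SD of 0.26 was not compared with that of other genes. The ratio of Fcgr3 to Fcgr2b overlapped (-1.24 ± 0.35 and -0.94 ± 0.90, SD), and its difference of 0.30 became -0.066 without PAM3CSK4 replicate 4. Over all 11376 other genes tested, the ratio to Fcgr2b was higher without overlap in 25.8%, lower in 0.255%, and differed by a median of 1.18, with Fcgr2b itself below the vehicle range in 3 treated libraries.

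**Figure D3:**
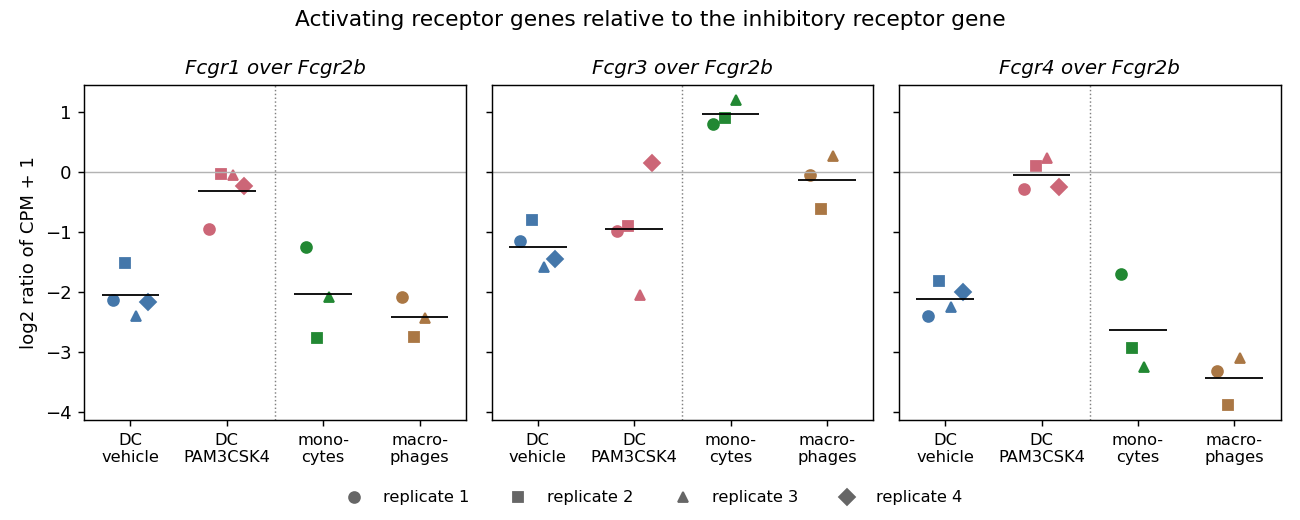
log2 ratio of CPM + 1 of each activating receptor gene to Fcgr2b (vertical axis) in the 4 groups (horizontal axis). Points are libraries with shape for the replicate, lines are group means, and the dotted line separates the 2 tables. The Fcgr1 and Fcgr4 ratios do not overlap between vehicle and PAM3CSK4, and the Fcgr3 ratio does not overlap between monocytes and macrophages.

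Of 27 genes of ITAM signalling below the receptors, 3 rose with PAM3CSK4 and 0 fell, where 2.82% of all genes tested were higher and 2.29% lower. The median log2 change of the 27 was 0.13 against 0.20 over all genes. The 3 that rose included the Src-family kinase gene Fgr (89.7 ± 22.5 to 250 ± 105 CPM, SD, with a log2 change of 1.38 and adjusted p = 0.041). Sos1, an exchange factor for Ras, was another (29.9 ± 7.42 to 129 ± 84.6 CPM, 1.86, adjusted p = 0.026). The call of Sos1 was lost when any vehicle library or PAM3CSK4 replicate 3 was left out (adjusted p of 0.061 to 0.094) and without the filter (0.20). That of Fgr was also lost without PAM3CSK4 replicate 1 or 2 and under median centring, a common total and quantile normalization (adjusted p of 0.053 to 0.23 over these settings). Tec, a kinase of the Btk family, was at 6.87 ± 1.66 and 3.34 ± 0.31 CPM and did not pass (-0.84, adjusted p = 0.061), but passed under those 3 scalings (adjusted p of 0.030 to 0.043).

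None of the 12 tested genes of ITIM signalling passed with limma. At an unadjusted p under 0.05, 2032 of all 11377 genes tested were higher and 803 lower, and 2 of the 12 were higher. These were Ptpn6, which encodes the phosphatase SHP-1 (202 ± 44.9 and 351 ± 99.7 CPM, adjusted p = 0.11), and the adaptor gene Dok3 (24.2 ± 5.28 and 47.5 ± 19.9 CPM, adjusted p = 0.16). Ptpn6 passed with array quality weights (adjusted p = 0.030) and without PAM3CSK4 replicate 4 (0.025), and Dok3 without PAM3CSK4 replicate 1 (0.014). Inpp5d, which encodes SHIP, the partner of Fcgr2b, had means of 168 ± 17.0 and 134 ± 34.7 CPM, with a log2 change of -0.37 (adjusted p = 0.35). None of the 6 tested receptors that pair with the gamma chain passed with limma (1, the lectin gene Clec4e, was higher at an unadjusted p under 0.05, with a log2 change of 0.94). Of 7 other antibody receptor genes tested, Fcer2a, the low-affinity IgE receptor CD23, fell from 2.10 ± 0.80 to 0.19 ± 0.10 CPM (-1.35 ± 0.25, adjusted p = 0.013) and 0 rose. Beside the counts of these lists at an adjusted p under 0.05, 2.82% of all genes tested were higher and 2.29% lower. Fcer2a reached the filter through the vehicle group alone, and its call was lost without the filter (adjusted p = 0.077) and without vehicle replicate 2 (0.056).

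By the mean absolute difference of log2(CPM + 1) after centring each gene on its own mean, over the 8 libraries, the genes nearest to Fcer1g were Tgfbi (0.11), Stk40 (0.12) and Kremen1 (0.12). Those nearest to Fcgr4 were Lst1 (0.13), LOC100038947 (0.15) and Wdfy3 (0.15). Those nearest to Fcrl5 were Rapgef5 (0.57), Marco (0.70) and Ptprm (0.70), against a mean absolute deviation of Fcrl5 itself of 2.28. Marco, a macrophage scavenger receptor gene, had a log2 change of 5.20 ± 0.52. Over all other genes tested the median difference was 0.53 from Fcer1g, 0.68 from Fcgr4 and 2.18 from Fcrl5. The mean absolute deviation of Fcer1g itself was 0.53 and that of Fcgr4 was 0.71.

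Macrophages had lower levels than monocytes of all 4 IgG receptor genes and of Fcer1g. Of 7 members tested 5 were lower and 0 higher, where 20.2% of the 12188 genes that reached 1 CPM in at least 3 libraries passed (12.8% higher and 7.42% lower). The same 5 had groups that did not overlap, against 34.2% of all genes (20.4% higher and 13.8% lower). The median log2 change was -1.61 over the 7 members and 0.10 over all genes, or 0.26 with a common total. Leaving out macrophage replicate 3, which was rich in plasma and B cell transcripts, left the 5 calls in place, and leaving out macrophage replicate 1 or 2 left 3 of them (Fcer1g, Fcgr2b and Fcgr3).

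**Figure D4:**
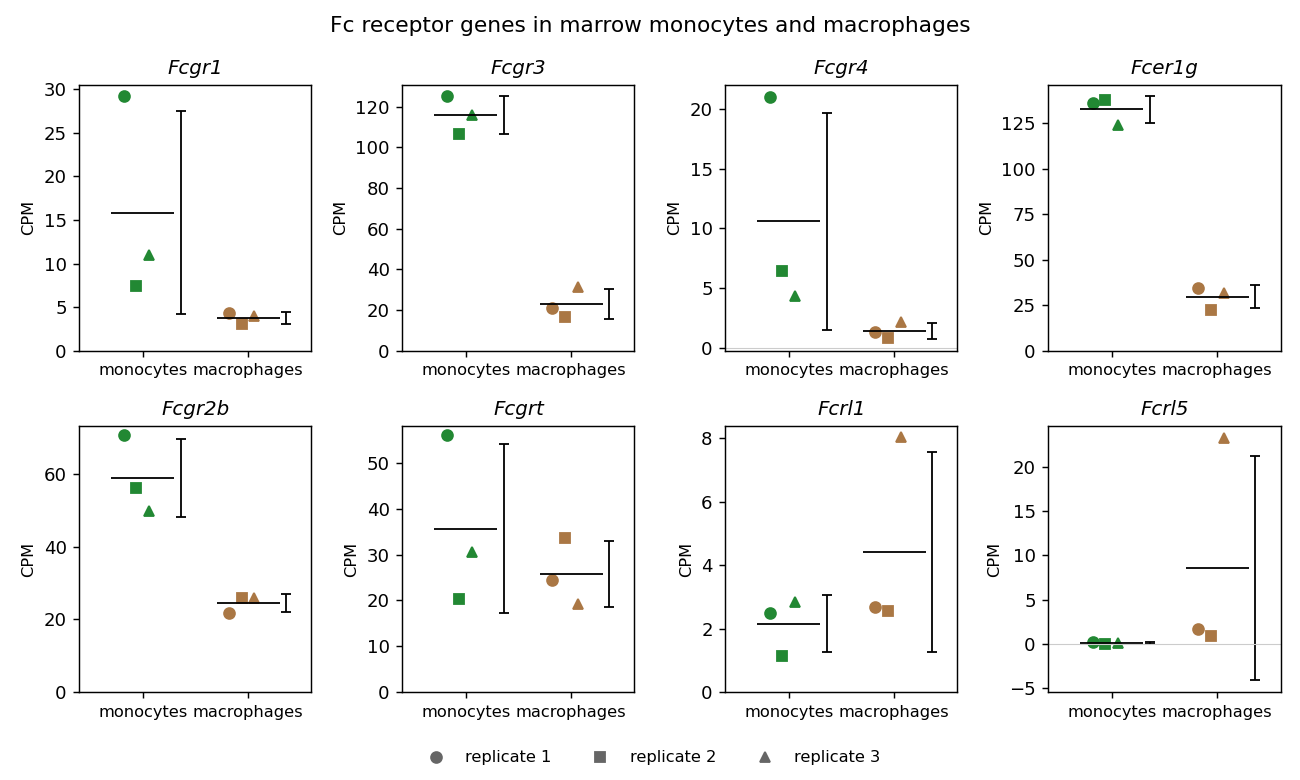
CPM (vertical axis) of each gene in monocytes and macrophages (horizontal axis). Points are libraries with shape for the replicate, lines are means and bars SD, n = 3 per group. Fcgr1, Fcgr3, Fcgr4, Fcer1g and Fcgr2b are lower in all macrophage libraries than in any monocyte library, and Fcrl1 and Fcrl5 are highest in macrophage replicate 3.

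Fcgr3 was at 125, 106 and 116 CPM in monocytes and at 20.9, 16.6 and 31.2 CPM in macrophages. The groups were far apart, and the log2 change was -2.33 ± 0.27 (n = 3 and 3, adjusted p = 9.8e-05). Fcer1g was at 136, 138 and 124 CPM in monocytes and at 34.5, 22.6 and 31.8 CPM in macrophages. The monocyte libraries were within 5.62% (SD) of their mean, and the log2 change was -2.15 ± 0.24 (adjusted p = 9.2e-05).

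Fcgr4 was at 20.99, 6.43 and 4.33 CPM in monocytes and at 1.29, 0.822 and 2.11 CPM in macrophages. Monocyte replicate 1 stood above the other two, and the log2 change was -2.02 ± 0.47 (adjusted p = 0.0089). It was -1.42 without that library (adjusted p = 0.013) and -1.29 with array quality weights (adjusted p = 0.033). Fcgr1 showed the same high library, at 29.2, 7.41 and 10.9 CPM in monocytes against 4.34, 3.02 and 3.96 CPM in macrophages, with a log2 change of -1.61 ± 0.42 (adjusted p = 0.017). Both calls were lost without macrophage replicate 1 or 2 (adjusted p = 0.059 and 0.065 for Fcgr4, 0.069 and 0.092 for Fcgr1) and without the filter (0.066 and 0.085). Monocyte replicate 1 also had the highest sums of conventional dendritic cell genes (1042 CPM against 516 and 194) and macrophage genes (438 against 124 and 191) among the monocytes. The part of such cells in its Fcgr1 and Fcgr4 values was not tested.

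Fcgr2b was lower as well, at 70.8, 56.1 and 49.9 CPM in monocytes and 21.8, 26.0 and 25.8 CPM in macrophages. The log2 change was -1.22 ± 0.24 (adjusted p = 0.0036). Fcgrt did not pass. It was at 56.2, 20.2 and 30.5 CPM in monocytes and at 24.4, 33.7 and 19.3 CPM in macrophages, with overlapping groups and a log2 change of -0.37 ± 0.36 (adjusted p = 0.55).

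Among the Fc receptor-like genes, Fcrl1 was at 2.49, 1.14 and 2.83 CPM in monocytes and at 2.66, 2.54 and 8.03 CPM in macrophages. It did not pass (0.68 ± 0.40, adjusted p = 0.30), and the change was 0.02 with quantile normalization. Fcrl5 was at 0.230 and 0.0939 CPM in monocyte replicates 1 and 3, was listed at the lowest value of the table in replicate 2, and was at 1.68, 0.910 and 23.3 CPM in macrophages. It missed the filter and was not tested. With no filter the log2 change was 2.18 (adjusted p = 0.19). With a library left out the filter asked for 1 library fewer, and the gene could enter through macrophage replicates 1 and 3 alone. It then passed without monocyte replicate 1 or macrophage replicate 2, and did not pass without monocyte replicate 2 or 3.

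The library that was high in Fcrl5 and Fcrl1 was also high in B lineage genes. In macrophage replicate 3 the B cell genes summed to 783 CPM, against 79.5 and 87.1 CPM in replicates 1 and 2, and the plasma cell genes to 8393 against 2457 and 552 CPM. Ms4a1 was at 8.86, 9.45 and 122 CPM in the 3 macrophage libraries and Jchain, which encodes the joining chain of polymeric antibody, at 2029, 397 and 6891 CPM. Their part in the values of Fcrl1 and Fcrl5 was not tested.

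**Figure D5:**
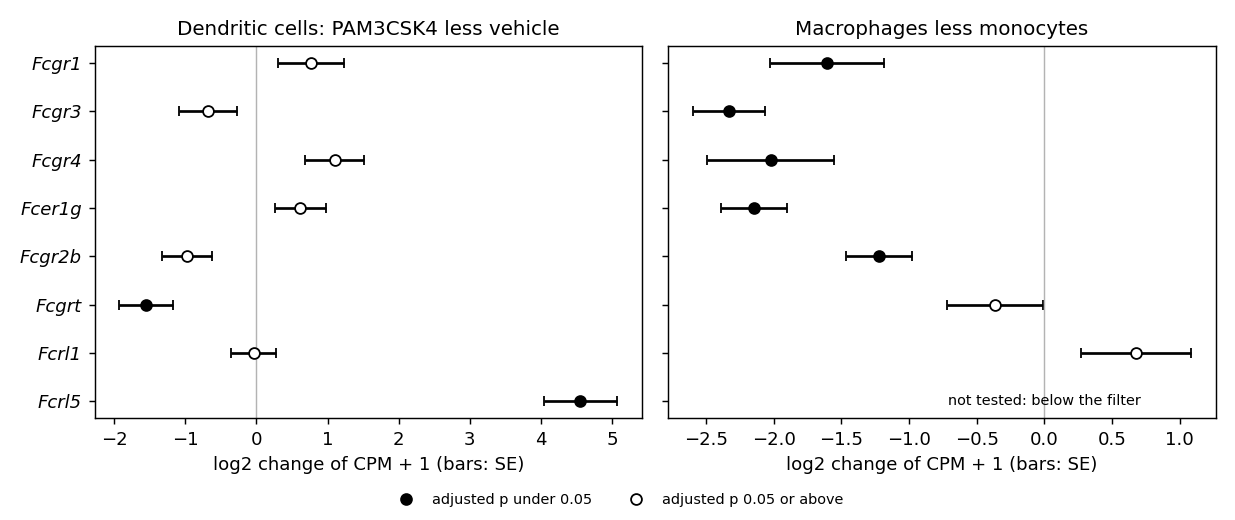
log2 change of CPM + 1 (horizontal axis, bars are SE) of each gene (vertical axis) for PAM3CSK4 less vehicle in dendritic cells and for macrophages less monocytes; filled points have an adjusted p under 0.05. On the left only Fcgrt and Fcrl5 are filled, and on the right the 4 IgG receptor genes and Fcer1g are filled and negative.

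Fcgr3 was lower in macrophages by more than Fcgr2b was. The log2 ratio of Fcgr3 to Fcgr2b was 0.81, 0.91 and 1.20 in monocytes and -0.05, -0.61 and 0.26 in macrophages. The ratios did not overlap and differed by -1.11, and over the 12187 other genes tested the ratio to Fcgr2b was lower without overlap in 1.39% and higher without overlap in 83.1%. The ratios of Fcgr4 (-2.63 ± 0.82 and -3.44 ± 0.40, SD) and Fcgr1 (-2.04 ± 0.76 and -2.42 ± 0.33) overlapped, and the Fcgr1 difference of -0.39 became 0.0047 without monocyte replicate 1.

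Of 27 ITAM signalling genes 11 were lower in macrophages, 0 were higher and 16 did not pass, where 7.42% of all genes tested were lower and 12.8% higher, with a median log2 change of -0.68 against 0.10 over all genes. They included Fgr (126 ± 50.2 to 16.6 ± 5.38 CPM, SD; -2.81, adjusted p = 0.00013), the adaptor gene Tyrobp (215 ± 72.9 to 40.1 ± 3.20 CPM; -2.33, adjusted p = 0.00016), the kinase gene Prkcd (-1.88, adjusted p = 0.00072) and Card9 (-2.08, adjusted p = 0.0012). Of 13 ITIM signalling genes 2 were higher and 3 lower. Ptpn6 was lower (276 ± 101 to 103 ± 17.3 CPM; -1.36, adjusted p = 0.0067), and the adaptor genes Sla2 (2.47) and Dok2 (2.22) were higher. Cbl, a ubiquitin ligase, was lower at -0.83 (adjusted p = 0.030), which was lost under quantile normalization and without monocyte replicate 1 or 3 or macrophage replicate 2 or 3 (adjusted p of 0.075 to 0.15).

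Among 6 tested receptors that pair with the gamma chain, the paired immunoglobulin-like receptors Pira2 (104 ± 1.86 to 20.2 ± 4.19 CPM; -2.33, adjusted p = 5.0e-05) and Pira6 (-2.36, adjusted p = 0.00075) were lower, and the NK cell receptor gene Ncr1 was higher (0.038 ± 0.065 to 40.1 ± 23.3 CPM; 5.09, adjusted p = 2.4e-05). Among 6 other antibody receptor genes tested 3 were higher and 0 lower. These were Fcrla, an Fc receptor-like gene of B cells (0.32 ± 0.54 to 26.9 ± 17.7 CPM; 4.29), Ms4a2, the beta chain of the mast cell IgE receptor (0.99 ± 0.19 to 9.60 ± 2.67 CPM; 2.39), and Fcmr, the IgM receptor of lymphocytes (0.10 ± 0.14 to 41.4 ± 59.0 CPM; 4.12), with adjusted p of 5.3e-05, 0.00020 and 0.0032. Fcrla, Fcmr, Ncr1 and Sla2 reached the filter through the macrophages alone, and with a pseudocount of 0.1 their changes were 6.67, 6.67, 8.06 and 4.83, and that of Ms4a2 was 3.13. Sla2 was at 1.78 with quantile normalization, Fcmr at 4.90 with array quality weights, at 5.003 without macrophage replicate 1 and at 2.85 without macrophage replicate 3, and Ncr1 at 5.69 without macrophage replicate 3, each still past the threshold. The B cell, mast cell and NK cell marker sums of these libraries were higher too, and their part was not tested. Ms4a2 is itself counted in the mast cell and basophil sum, and Ncr1 in the NK and T cell sum.

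Over the 6 libraries the genes nearest to Fcgr1 were Ptgfrn (0.11), Cd300c2 (0.14) and Cd14 (0.18), and those nearest to Fcer1g were Trps1 (0.084), Ticam2 (0.092) and Gas7 (0.10), in mean absolute difference of centred log2(CPM + 1).

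The tables of dendritic cells and of the other populations were normalized separately, so levels across them were set side by side with no test. A difference between the tables in how reads were assigned to genes was not tested. Fcer1g had overlapping levels in vehicle dendritic cells (133 ± 17.4 CPM, SD) and monocytes (133 ± 7.46), and was low in macrophages (29.6 ± 6.23). Fcgr1 and Fcgr4 were in the order vehicle dendritic cells (25.1 ± 7.76 and 23.5 ± 4.02 CPM), monocytes (15.8 ± 11.7 and 10.6 ± 9.07) and macrophages (3.77 ± 0.68 and 1.41 ± 0.65), and the first of these overlapped the second in library values. Fcgr2b was in the same order (105 ± 9.32, 58.9 ± 10.7 and 24.5 ± 2.38 CPM), without overlap between neighbours. Fcgr3 was highest in monocytes (116 ± 9.36), then vehicle dendritic cells (44.9 ± 13.2) and macrophages (22.9 ± 7.48), where the lowest dendritic cell library (31.3) and the highest macrophage library (31.2) nearly met. Fcgrt overlapped between all neighbours (56.5 ± 14.4, 35.7 ± 18.5 and 25.8 ± 7.27 CPM in vehicle dendritic cells, monocytes and macrophages). Fcrl1 was at 5.09 ± 2.68, 2.16 ± 0.89 and 4.41 ± 3.14 CPM, and Fcrl5 was highest in PAM3CSK4 dendritic cells (67.1 ± 43.9), against 1.62 ± 1.35, 0.11 ± 0.12 and 8.62 ± 12.7 CPM in the vehicle, monocyte and macrophage groups.

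Per kilobase of exonic sequence in GENCODE M21, Fcer1g had the highest level of the 8 genes in every group, at 152 CPM per kb with vehicle, 265 with PAM3CSK4, 152 in monocytes and 33.9 in macrophages. Among the receptors the next was Fcgrt with vehicle (26.9, close to Fcgr3 at 25.9), Fcgr4 with PAM3CSK4 (49.7) and Fcgr3 in monocytes (66.8) and macrophages (13.2, close to Fcgrt at 12.3). Lengths counted the exonic bases of all transcripts of a gene together. They were 5790 for Fcgr2b (7 transcripts) and 1256 to 2589 for the other IgG receptor genes, and the order with other lengths was not tested. Fcrl5 was the lowest with vehicle (0.46) and in monocytes (0.031), and reached 19.3 CPM per kb with PAM3CSK4, close to Fcgr1 (20.7) and Fcgr3 (18.3).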

How the data were processed

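RNA-seq of 14 libraries was analysed from 2 deposited tables. The authors deposited values named FPKM, but the low values of a library lie on whole multiples of 1 step (65.9% to 90.8% within 0.05 steps, at most 10.6% with a step 7% longer) that does not depend on the gene, so they were read as CPM. The submitters' processing notes name STAR 2.5.3a, Partek and mm10 without their roles. Unexpressed genes are listed at 0.0001.

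Groups came from the sample titles. There were 3 dendritic cell columns in the second table that were left out, because their names do not show the treatment. The 2 tables were fitted separately on log2(CPM + 1), using limma 3.58.1 (R 4.3.3; eBayes with an intensity trend). Tests were two-sided, and p-values were adjusted by Benjamini-Hochberg over every gene in the fit, with 0.05 as the threshold. The test was tried on simulated data with known changes. Genes had to reach 1 CPM in at least 4 (dendritic cells) or 3 libraries, with 1 library fewer when a library was left out. Alternatives were pseudocounts of 0.1 and 0.5, no filter, a filter on the mean, 3 scalings, no trend, array quality weights, a replicate block and leaving out each library.

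The members and the 15 gene lists were chosen with earlier results of these data known. The text names all members, up to 4 genes of each pathway list by unadjusted p, and the 3 nearest genes of 5 profiles, except for results that are not reported here. Marker genes named beside a result, and Marco among the nearest genes, were picked after their values were seen, as were the promoters shown.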

Additional observations from a re-analysis of the deposited data

Results flagged for a closer look

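In the groups of 4 dendritic cell libraries, values of 1 library that stood far from the other 3 were looked for in the 8 genes and 14 marker and pathway sums, in 44 groups, of which chance would mark about 1 in 20. None of the 8 genes had such a library. It was found for 6 sums. The neutrophil genes summed to 11546 CPM in PAM3CSK4 replicate 4, and the mast cell and basophil genes to 274 CPM in the same library. The NK and T cell genes summed to 42.4 CPM in vehicle replicate 3 and to 32.4 CPM in PAM3CSK4 replicate 4. The erythroid genes summed to 119 CPM in vehicle replicate 4, and the plasmacytoid dendritic cell genes to 80.9 CPM, the low end, in vehicle replicate 1.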

How the results depend on the processing

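In dendritic cells 2 members passed under both other pseudocounts, the filter on the mean, the 3 scalings and no trend, 3 passed with array quality weights, 0 without the filter, and 1 to 3 when a library was left out. Of the genes in the 4 pathway lists 4 passed, against 0 without the filter, 10 with array quality weights and 0 to 6 when a library was left out. In macrophages against monocytes 5 members were called, against 3 without the filter and 3 to 6 when a library was left out (the 6 with Fcrl5, let in by the lower filter), and of the pathway genes 22, against 35 with array quality weights and 16 to 27. The cause of these differences was not tested. Signs turned for the Fcgr3 to Fcgr2b ratio in dendritic cells (-0.066 without PAM3CSK4 replicate 4; range 0.67 to -0.066 over libraries left out), the Fcgr1 to Fcgr2b ratio (0.0047 without monocyte replicate 1; range -0.75 to 0.0047), Fcgrt in macrophages (0.015 without monocyte replicate 1; range -0.70 to 0.015), Fcrl1 in dendritic cells (0.19 with array quality weights, and 0.23, 0.0076 and 0.10 without vehicle 1, PAM3CSK4 3 and PAM3CSK4 4; range -0.20 to 0.23) and Pira2 (-0.084 without PAM3CSK4 2; range -0.084 to 0.60), none of which passed the threshold. Over all genes, 582 passed in dendritic cells (321 higher, 261 lower), against 32 without the filter, 1649 with array quality weights, 184 to 1008 with a library left out, and 208 higher and 487 lower under median centring, 277 and 391 with a common total and 237 and 438 with quantile normalization. In macrophages 2468 passed (1564 higher, 904 lower), against 5471 with array quality weights, 1699 to 3364 with a library left out, 1370 higher and 1303 lower under median centring, 2109 and 769 with a common total and 1004 and 1238 with quantile normalization.

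With the replicate number as a block, 2 members passed in dendritic cells and 5 in macrophages, each as without it. Over all genes 976 and 2609 passed with the block, against 582 and 2468 without it. The deviations of libraries with the same number correlated at 0.03, 0.29, -0.12 and 0.30 (dendritic cells, 3 of 4 best with their own number) and 0.18, 0.08 and 0.12 (3 of 3). Libraries with the same number may therefore share some structure, and the main fits did not pair them. At 28.2 to 75.1 reads or fragments per CPM, Fcrl5 in monocytes rests on at most 13 reads a library.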
